A study of Homo sapiens with 4 samples.

Results

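Most enteric neurons of the human ganglioids carried more than 1 neurotransmitter identity. Of 6557 nuclei annotated as enteric neurons, 3753 were positive in 2 or more of the 6 deposited identity columns (nitrergic, cholinergic, catecholaminergic, serotonergic, glutamatergic and GABAergic), 1978 in exactly 1 and 590 in none. The remaining 236 were marked as non-neuronal in those columns and were treated as not assessed. Nuclei with 2 or more identities are described here against those with exactly 1. In all, 14812 annotated nuclei were profiled.

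Enteric neurons control gut movement, secretion and blood flow from ganglia in the gut wall. Motor neurons that relax the muscle make nitric oxide with the synthase NOS1, whereas those that contract it release acetylcholine, made by choline acetyltransferase (CHAT). Combinations of transmitters in a single neuron, known as chemical coding, are a textbook property of the enteric nervous system. Tyrosine hydroxylase (TH) is the first enzyme of catecholamine synthesis, TPH1 and TPH2 are those of serotonin synthesis, GAD1 and GAD2 make GABA, and SLC17A6 loads glutamate into vesicles.

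The nuclei came from 4 samples of enteric ganglioids, which are clusters of neural crest derivatives grown in suspension from the human embryonic stem cell line H9. Each sample pooled several ganglioids, 2 samples being untreated (control) and 2 exposed to 2 µM PP121 from day 15 to day 20. The labels number differentiation replicates 1 and 2 in both groups, without saying whether a control and a PP121 sample of the same number came from the same differentiation. PP121 is an inhibitor of tyrosine kinases and PI3 kinases, and the study asked whether it enriches nitrergic neurons. All samples share a single cell line and hold no tissue of the gut itself. The annotation dated replicate 1 of both groups to day 42 and replicate 2 to day 38, and the sample name stored in both control annotations did not match the labels. Libraries held 29305639 to 49428774 UMIs (unique molecular identifiers, which count RNA molecules), and any pair shared at most 8 annotated barcodes. p-values below measure the spread between these samples only, and intervals on shares are exact 95% Clopper-Pearson intervals that cover counting error only.

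For the nitrergic identity, the study's methods describe a rule on NOS1 expression and a gene-module score of the same nuclei, with imputed expression used unless stated otherwise. The rule for the other 5 identities is not given in the sources used here. A positive identity is therefore not the same as a detected transcript. Tests on genes below compare nuclei sorted on their own RNA, so they describe the classes and are not evidence independent of the sorting. The genes of the identity lists were left out of every count of differing genes, and no test of their levels is given. Joint detection of some of them was tested for pairs of identities. The neuronal, mesenchymal and epithelial markers below are those by which the study annotated its cell types. Their sums therefore describe the labels and are no independent check of them. Summed over the neuronal markers, nuclei with 2 or more identities held 10254 CPM (UMIs scaled to a fixed library total) in control 1, 8968 in control 2, 12337 in PP121 1 and 9681 in PP121 2. Nuclei with 1 identity held 7668, 6244, 8842 and 7601 CPM in the same order. Mesenchymal markers summed to 146 to 200 CPM in the former, against 4873 to 5514 CPM in nuclei annotated as mesenchymal, and epithelial markers to 7.65 to 11.4 CPM.

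Neurons with 2 or more identities made up 55.8% (1285 of 2301) of neurons in control 1, 56.2% (702 of 1250) in control 2, 61.8% (1254 of 2030) in PP121 1 and 52.5% (512 of 976) in PP121 2. The controls lay within 1 percentage point of each other, and the PP121 samples lay on either side of them. Control samples averaged 56.0% ± 0.223 and PP121 samples 57.1% ± 6.59 (SD, n = 2 each). This gap of 1.11 points lay within the SD of the PP121 samples. The exact permutation test gave p = 1, where 2 samples against 2 cannot go below 0.333. Within the samples dated day 42 the difference was 5.93 points, and within those dated day 38 it was -3.70 points. Without PP121 replicate 1 it turned to -3.54 points. The 236 neurons not assessed, 143 of them in PP121 1, are part of this denominator, and among assessed neurons alone the difference was 4.64 points (66.5% in PP121 1). Neurons with 3 or more identities were the class in which PP121 1 stood furthest apart, at 34.3% of its neurons against 18.9% in control 1, 17.3% in control 2 and 14.9% in PP121 2. The highest number of identities in a neuron was 5, in 33 neurons.

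**Figure D1:**
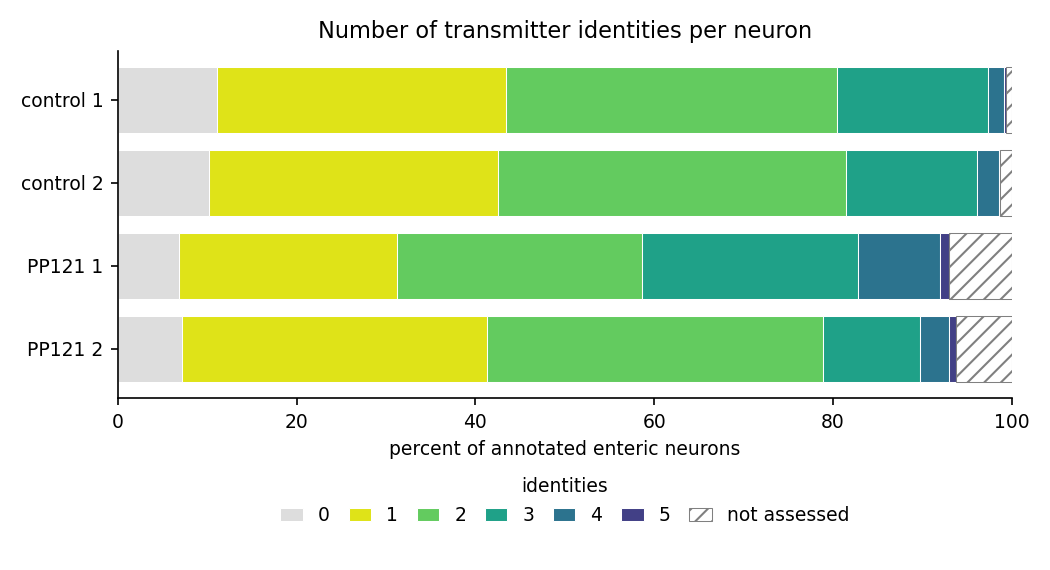
Share of annotated enteric neurons (percent) by number of transmitter identities in each of the 4 samples. In every sample the neurons with 2 or more identities outnumbered those with exactly 1, and PP121 1 held the largest share with 3 or more (34.3%).

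Cholinergic and GABAergic identities were seldom held alone. Over all samples, 92.2% of the 1740 cholinergic neurons and 92.2% of the 2377 GABAergic neurons carried at least 1 more identity, as did 89.8% of the 1740 serotonergic neurons. The share was 77.0% of 1128 nitrergic, 74.4% of 1941 catecholaminergic and 70.0% of 2405 glutamatergic neurons. Among the neurons with 2 or more identities, GABAergic was the most frequent component (58.4%) and nitrergic the least frequent (23.1%). Neurons with exactly 1 identity were made up differently. Glutamatergic was the most frequent there (36.5%, against 44.8% in the class with 2 or more), followed by catecholaminergic (25.1% against 38.5%). GABAergic made up 9.35% of them and cholinergic was the least frequent (6.88% against 42.7%). A neuron with 2 or more identities is counted under each of them.

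The pair of cholinergic and GABAergic identities was the most frequent, in 1394 neurons over all samples. It was present in 548 neurons of control 1, 201 of control 2, 579 of PP121 1 and 66 of PP121 2. As a share of the neurons with 2 or more identities this was 42.6%, 28.6%, 46.2% and 12.9%. The count was above that given by the product of both identities' shares among assessed neurons in all 4 samples, by a ratio of 1.58 to 4.11. Of the cholinergic neurons in PP121 1, 92.3% were also GABAergic. PP121 2 held the fewest cholinergic neurons, 93, and 71.0% of them were GABAergic.

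The pair of serotonergic and GABAergic identities followed with 948 neurons, of which 318 were in control 1, 83 in control 2, 491 in PP121 1 and 56 in PP121 2. The ratio of observed to expected ranged from 1.25 to 1.61. The replicates dated day 42 held more of this pair than those dated day 38 in both groups, at 24.7% and 39.2% of neurons with 2 or more identities against 11.8% and 10.9%.

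Catecholaminergic and glutamatergic identities met in 876 neurons, spread as 163 in control 1, 200 in control 2, 265 in PP121 1 and 248 in PP121 2. It made up 12.7% of the neurons with 2 or more identities in control 1 and 48.4% in PP121 2, while its ratio to the expected count was 0.94 to 1.57 and lay on both sides of 1. In PP121 2 both single identities were frequent, in 401 and 605 neurons.

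Of the 15 possible pairs, 3 exceeded the product of their shares in all 4 samples (the pairs of GABAergic with cholinergic and with serotonergic, and that of nitrergic with serotonergic at 1.11 to 1.45), 8 fell short in all 4 and 4 were mixed. The identities of a nucleus share its library and depth, so the ratios are given without a test. Nitrergic and cholinergic identities formed the rarest pair, with 58, 18, 51 and 7 neurons (134 in all) and ratios of 0.38 to 0.76. These identities mark the inhibitory and excitatory motor neurons of the gut. Glutamatergic and GABAergic identities were also paired less often than the product of their shares, at ratios of 0.52 to 0.77. The pair of cholinergic and serotonergic identities split by treatment, with ratios of 0.62 and 0.62 in the controls and 1.54 and 1.47 in the PP121 samples. With 2 samples a group this difference could not reach an exact p below 0.333. The pair of nitrergic and GABAergic identities split likewise, with ratios of 0.996 and 0.538 in the controls and 1.05 and 1.59 with PP121. Among pairs on the same side of 1 in all 4 samples, serotonergic with GABAergic was higher in both PP121 samples than in both controls. Nitrergic with catecholaminergic was lower in both. In PP121 2, 30 neurons were cholinergic and serotonergic against 20.4 from the product of the shares, and 25 nitrergic and GABAergic against 15.7.

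**Figure D2:**
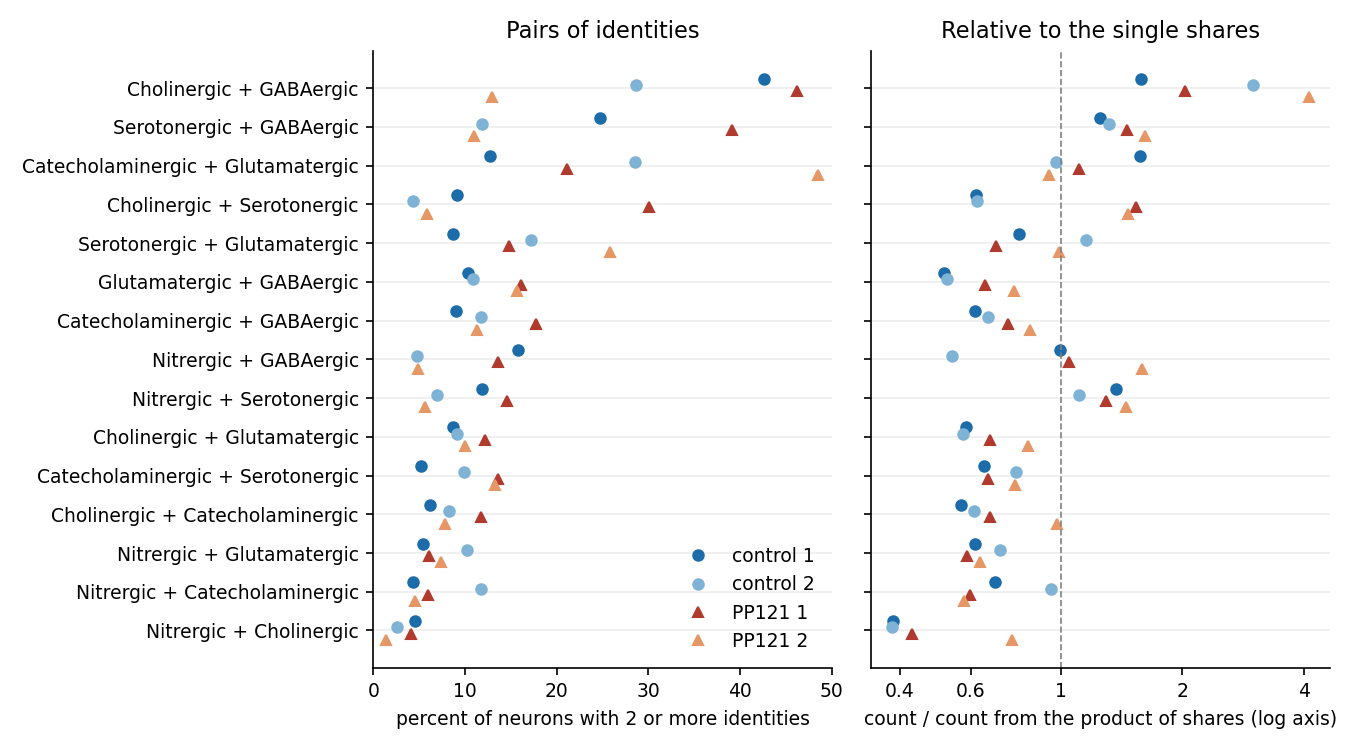
Pairs of transmitter identities in the neurons with 2 or more identities of each sample, as a share of those neurons (percent) and as the ratio of the observed count to the product of the shares of both identities. The pair of cholinergic and GABAergic identities lay above a ratio of 1 in all 4 samples and that of nitrergic and cholinergic below 1 in all 4.

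Counted as exact combinations, 55 of the 57 possible sets of 2 or more identities occurred, 36 of them in all 4 samples, and the 5 most frequent made up 49.2% of the neurons. Catecholaminergic with glutamatergic and nothing else was the most frequent, in 565 neurons (88, 119, 173 and 185 by sample). Cholinergic with GABAergic followed with 556 neurons (340, 103, 101 and 12), of which control 1 held most. The triple of cholinergic, serotonergic and GABAergic held 312 neurons, and 212 of these were in PP121 1.

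The deposited subtypes, called separately in control (EN 1 to EN 8) and PP121 samples (EN A to EN I), differed in how many of their neurons had 2 or more identities. In EN 3 the share was 87.1% in control 1 and 98.5% in control 2, and 89.5% and 88.5% of those neurons were cholinergic and GABAergic. In EN 5 it was 84.2% and 98.1%, led by the pair of serotonergic and GABAergic identities. Among the PP121 subtypes it was 98.9% and 100% in EN C, again cholinergic and GABAergic, and 95.1% and 96.6% in EN E, where nitrergic and GABAergic identities led. EN C and EN E held only 36 and 29 neurons in PP121 2. In EN G it was 98.0% in PP121 1 (97 of 99), led by cholinergic and serotonergic identities, and PP121 2 held 1 neuron of this subtype. The lowest shares were in EN F, at 12.6% and 28.0%, and in EN 8 and EN 6 of control 1, at 24.2% and 25.4%.

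Few nuclei with 2 or more identities held a transcript of a defining gene of both. The defining genes were a textbook list of synthetic enzymes and vesicle or membrane transporters of each transmitter, which may differ from the genes behind the deposited identities, and were counted after each nucleus was thinned to 2000 UMIs so that depth was equal. At least 1 UMI for each of 2 of its own identities was found in 2.50% of the neurons with 2 or more identities in control 1, 2.14% in control 2, 3.59% in PP121 1 and 2.15% in PP121 2. Over all samples this was 103 of 3748 nuclei, or 2.75% (95% interval 2.25 to 3.32%), and without thinning 606 of 3753, or 16.1%. UMIs of any 2 identities were held by 3.95% of the neurons with 2 or more identities, 1.42% of those with 1, 0.342% of those with none, 0.175% and 0.159% of the annotated progenitor classes and 0.111% of mesenchymal nuclei. The last value, at a median depth of 7689 UMIs before thinning against 7925, gives the level in cells that should lack these genes. A UMI for at least 1 of its own identities was held by 33.4% of the neurons with 2 or more identities and 6.96% of those with 1. These 2 shares are not alike, since the former have 2 or more sets of genes in which to be counted and the latter 1. The make-up of identities also differed between the classes.

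CHAT was detected in 14.9% of neurons with the cholinergic identity alone, 9.80% of those with cholinergic and another identity, 0.285% of assessed neurons without it and 0 of 898 mesenchymal nuclei, which allows up to 0.334%. GAD2 was detected in 12.4% of neurons GABAergic alone and 27.0% of those GABAergic with another identity, against 5.86% of neurons without the identity and 0.668% of mesenchymal nuclei. NOS1 stood at 4.65% alone and 4.26% with another, against 0.0966% without the nitrergic identity and 0.445% in mesenchymal nuclei. TH stood at 3.03% and 4.51% (0.687% without), and TPH1 at 2.25% and 2.56% (0.0877% without). SLC17A6 was an exception, at 4.04% in neurons glutamatergic alone, 8.63% in those with another identity and 4.87% in neurons without the glutamatergic identity. SLC5A7, the choline transporter, was likewise at 0.499% in cholinergic neurons with another identity and 1.31% in neurons without it.

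**Figure D3:**
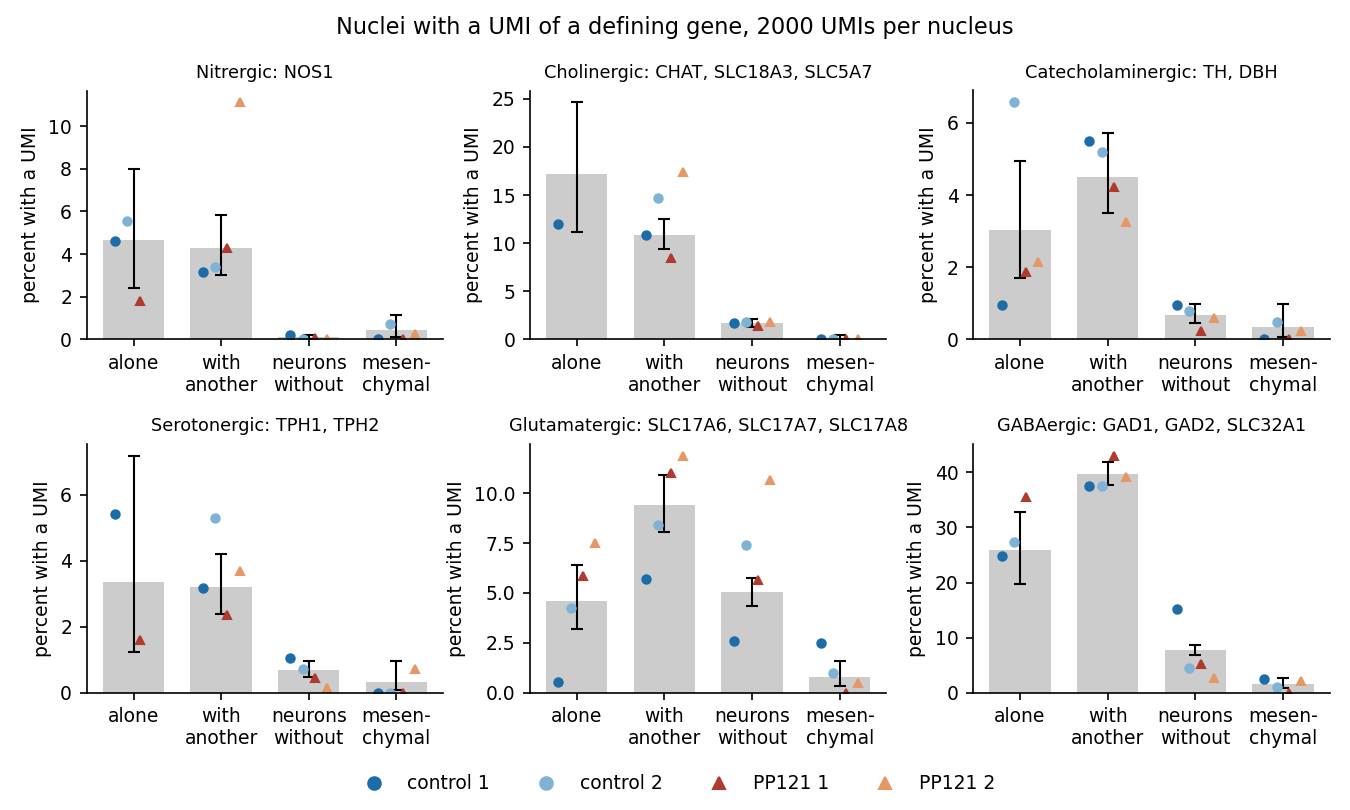
Share of nuclei (percent) with at least 1 UMI of a defining gene at 2000 UMIs a nucleus, in neurons with the identity alone, with another identity, without it, and in mesenchymal nuclei. Bars are all 4 samples together with 95% Clopper-Pearson intervals, and dots are single samples with at least 20 nuclei. GAD2 stood highest in GABAergic neurons with another identity (27.0%), and SLC17A6 stood at 4.87% in neurons without the glutamatergic identity and 4.04% in those glutamatergic alone.

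Detected transcripts, counted without imputation among all neurons, gave some of the same pairs and not others. At 2000 UMIs the observed share was above the product of the shares in 4 of 4 samples for 3 of the 15 pairs. UMIs of cholinergic and GABAergic defining genes met in 71 nuclei at 2000 UMIs, where the product of the shares in each sample gave 55.7, and the observed share was higher in 4 of 4 samples. Catecholaminergic and glutamatergic genes met in 17 nuclei against 7.08, again higher in 4 of 4. Glutamatergic and GABAergic genes met in 15 nuclei against 67.1, and were lower in 4 of 4 samples. Cholinergic and catecholaminergic genes met in 9 nuclei against 5.02, higher in 4 of 4, although those identities were paired below the product of their shares. Serotonergic and GABAergic genes met in 23 nuclei against 17.6, higher in 3 of 4. Cholinergic and serotonergic genes met in 1 and 2 nuclei of the controls and 0 and 1 with PP121, too few to show the split by treatment of those identities. Without thinning they met in 12 and 11 nuclei of the controls against 13.4 and 7.37, and in 13 and 5 with PP121 against 9.65 and 1.97. Nitrergic and cholinergic genes, of the rarest pair of identities, met in 3 nuclei against 2.38, and in 20 against 16.6 without thinning, so no shortage was detectable. Without thinning the counts for cholinergic with GABAergic, catecholaminergic with glutamatergic and glutamatergic with GABAergic genes were 474 against 318, 144 against 76.4 and 174 against 360. An exact sign-flip permutation test over 4 samples cannot go below p = 0.125, which after adjustment over the 15 pairs was 0.312 at 2000 UMIs, so no pair passed.

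Neurons with 2 or more identities were sequenced more deeply per nucleus than those with 1. Their median was 7881 UMIs in control 1, 8677 in control 2, 7416 in PP121 1 and 8648 in PP121 2, against 6824, 6929, 5940 and 7060 in neurons with 1 identity. The difference of 1467 ± 295 UMIs (SD over 4 samples) had the same sign in 4 of 4 samples (exact sign-flip permutation p = 0.125, the smallest possible, adjusted p = 0.1875 over 6 measures). When the assessed neurons of each sample were ranked by depth and cut into 3 equal bins, the share with 2 or more identities was 46.6% in the shallowest and 62.6% in the deepest bin of control 1. In control 2 it was 43.8% and 67.7%, in PP121 1 55.0% and 73.4%, and in PP121 2 43.0% and 65.6%. The part of depth in the identities was not tested. The median share of ribosomal UMIs was 0.688% in neurons with 2 or more identities and 0.807% in those with 1 (means over samples), lower in 4 of 4 samples with the same exact p of 0.125, and its part in the gene differences below was not tested. A larger share of neurons with 1 identity was called in S or G2M phase, 45.7% as a mean over samples against 36.8%, with the same order in 4 of 4 samples and the same exact p of 0.125. Phase was taken as annotated, at unequal depth, and is no measure of cycling on its own.

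**Figure D4:**
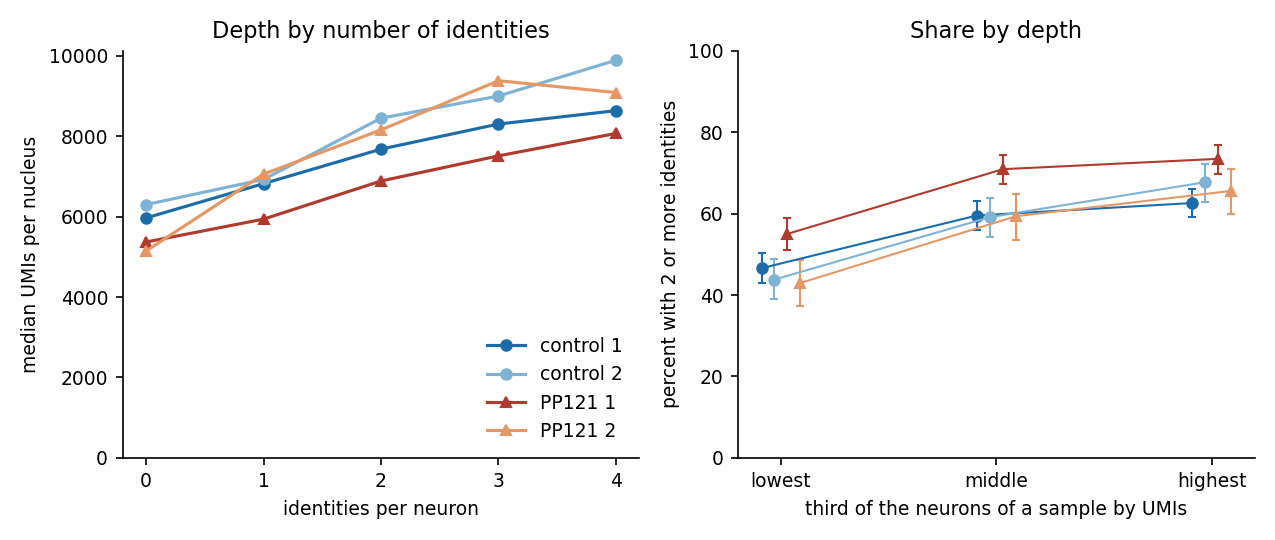
Left, median UMIs per nucleus by number of identities in each sample. Right, share of assessed neurons with 2 or more identities (percent, with 95% Clopper-Pearson intervals) in bins of equal size by depth. The share was higher in the deepest than in the shallowest bin of all 4 samples.

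Nuclei that scored in the top 5% for simulated doublets were less frequent in the class in 3 of 4 samples. They made up 3.11%, 4.56%, 2.07% and 1.17% of neurons with 2 or more identities and 4.29%, 4.70%, 1.82% and 2.10% of those with 1, but 12.5 to 44.8% of the neurons not assessed. When all samples were clustered together, 98.1%, 93.3%, 99.0% and 97.9% of neurons with 2 or more identities fell in the cluster formed mostly of annotated neurons. Of neurons with 1 identity 85.1%, 74.0%, 92.7% and 92.5% did.

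Among the genes that differed between neurons with 2 or more identities and those with 1, PLD5, SLC35F4, CACNA2D3 and GABRG3 rose and PAX3, PAX7 and LMO3 fell. UMIs were summed over each class in each sample and compared within samples with edgeR's quasi-likelihood test. Of 17674 genes, 696 rose (3.94%) and 581 fell (3.29%) at a Benjamini-Hochberg adjusted p under 0.05. The number fell to 476 without PP121 replicate 1, 654 without control replicate 2 and 696 without control replicate 1, and to 9 when samples were not blocked. The classes differed in make-up, with the GABAergic identity in 58.4% of neurons with 2 or more identities and 9.35% of those with 1. When neurons with 1 identity were weighted to the make-up of identities in the other class, 461 genes passed, and 665 passed within the joint neuron cluster. In sums of this kind, a change in the mix of cells and a change within each cell cannot be told apart.

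PLD5, a member of the phospholipase D family, had the largest rise among genes with a mean of at least 10 CPM and the same direction in all 4 samples. It stood at 926, 491, 775 and 239 CPM in neurons with 2 or more identities and at 442, 65.7, 73.0 and 9.76 CPM in those with 1 (control 1, control 2, PP121 1, PP121 2). The log2 difference was 2.63 ± 0.32 (SE, edgeR adjusted p = 0.000133). Control 1 had the smallest ratio between the classes, and each sample was higher in the class with 2 or more.

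SLC35F4, of a solute carrier family, stood at 750, 445, 708 and 295 CPM against 277, 75.2, 108 and 43.5 CPM (log2 difference 2.30 ± 0.17, edgeR adjusted p = 1.15e-06). PAX8, a paired-box transcription factor, stood at 390, 173, 320 and 68.6 CPM against 206, 35.4, 36.2 and 3.25 CPM (2.12 ± 0.28, edgeR adjusted p = 0.000308). GABRG3, a subunit of the ionotropic GABA receptor, stood at 99.9, 42.0, 91.6 and 79.9 CPM against 26.3, 13.7, 13.8 and 19.9 CPM (2.08 ± 0.13, edgeR adjusted p = 6.41e-07). For SLC35F4 and GABRG3 every sample of the class with 2 or more lay above every sample of the class with 1, whereas the values of PAX8 overlapped between samples. SPHKAP, which anchors protein kinase A, rose by 2.30 on the log2 scale, and AL589693.1 by 2.09. The other rises were the non-coding RNAs CDH18-AS1 (2.23), AL161804.1 (2.12), PAX8-AS1 (2.09) and AL591686.2 (2.08). These lie on the opposite strand of CDH18, SLC35F4, PAX8 and PLD5, and whether the authors counted by strand was not stated, so each could not be told apart from its partner. In GENCODE v29 (GRCh38) PLD5 spans chr1:242082986-242524696 and PAX8 chr2:113215997-113278950, both on the minus strand.

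The largest falls were of lower genes. PAX3, a transcription factor of the dorsal neural tube and neural crest, stood at 89.1, 136, 83.5 and 116 CPM in neurons with 2 or more identities and at 138, 223, 242 and 347 CPM in those with 1 (log2 difference -1.11 ± 0.13, edgeR adjusted p = 0.000105). The groups did not overlap. LMO3, a LIM-only transcriptional cofactor, stood at 5.01, 10.8, 6.05 and 13.1 CPM against 11.8, 19.8, 21.1 and 29.7 CPM (-1.27 ± 0.16, edgeR adjusted p = 0.000211). Its relative LMO1 fell by 1.30, the thyroid hormone receptor THRB by 1.39 and the membrane glycoprotein PDPN by 1.16 on the log2 scale. The other named falls were the RNAs LINC01515, RIC3-DT, PAUPAR, AC068308.1 and AC125613.1, with log2 differences of -1.46, -1.34, -1.29, -1.12 and -1.11.

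**Figure D5:**
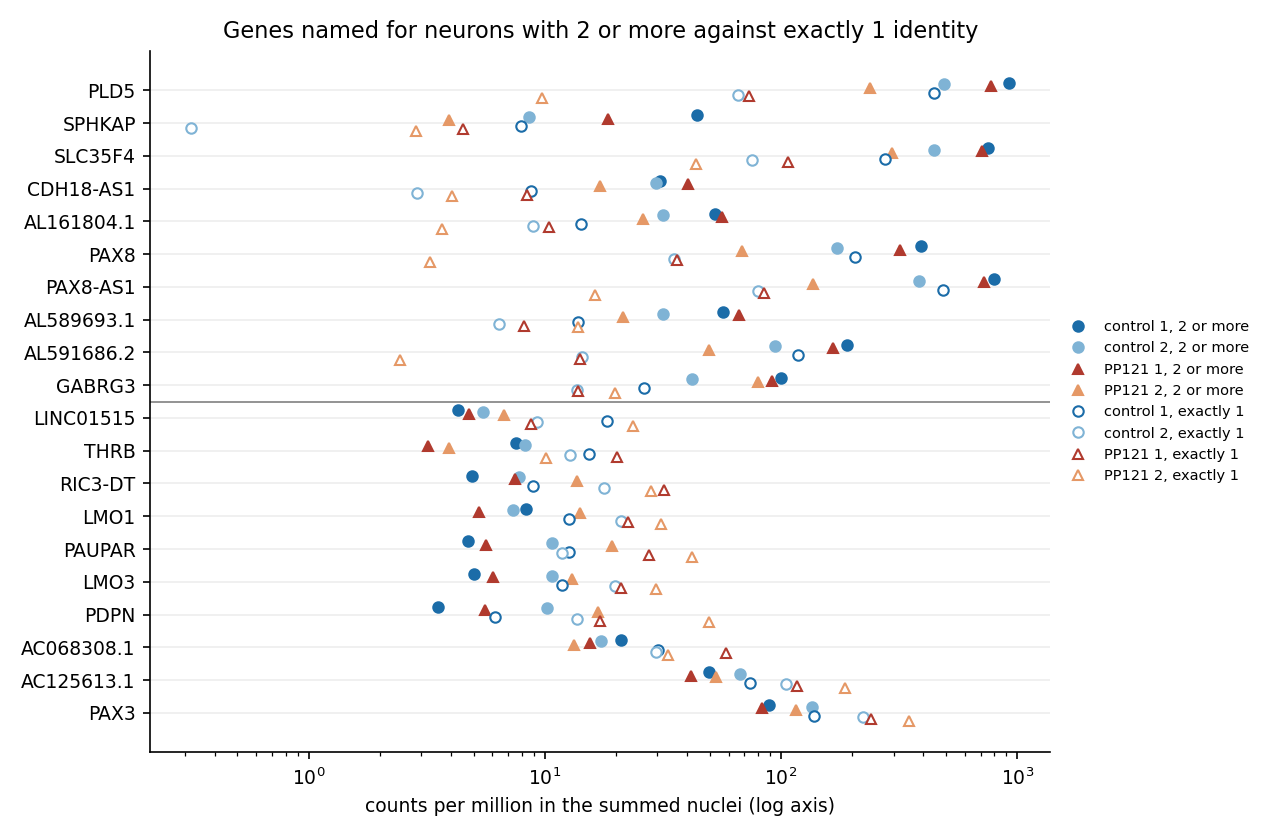
Levels (CPM, log axis) of the named genes in each sample, with filled points for neurons with 2 or more identities and open points for neurons with exactly 1. Within each sample the filled point lay above the open one for the 10 rises and below it for the 10 falls.

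Over all genes the median log2 difference was -0.01, and 3.94% rose and 3.29% fell. Among lists of genes by function, 6 of 11 neuronal markers rose and none fell (median log2 difference 0.25). They included the presynaptic adhesion molecule NRXN3 (0.68 ± 0.06). Of 7 progenitor markers 5 fell and none rose (median -0.73), among them PAX3, PAX7 (-0.92 ± 0.09), NFIA (-0.73 ± 0.10) and the receptor NOTCH1 (-0.87 ± 0.15). No mesenchymal marker of 11 passed (median -0.44), 1 of 5 glial markers fell (SLC1A3, a glutamate transporter, -0.74), and 1 of 12 cell cycle genes fell (CENPF, -0.85).

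Of 32 receptors for transmitters 11 rose and 1 fell (median 0.17), where 3.94% of all genes rose and 3.29% fell. The glutamate receptor subunits GRIK3 (1.12 ± 0.10), GRIA1 (1.01 ± 0.12) and GRM7 (0.87 ± 0.10) rose with GABRG3. Ion channels rose in 9 of 20 cases and fell in 1 (median 0.26). CACNA2D3, an auxiliary calcium channel subunit, stood at 734, 450, 598 and 459 CPM against 346, 104, 102 and 95.2 CPM, a log2 difference of 1.96 ± 0.17 (edgeR adjusted p = 4.48e-06), and the potassium channel KCND2 rose by 1.09. Of 24 genes of vesicle release 8 rose and 1 fell (median 0.12), led by the synaptic vesicle protein SV2C (2.05 ± 0.20) and including RIMS1 (0.52). Of 28 adhesion and guidance genes 8 rose and 1 fell (median 0.19), including CNTN6 (0.72) and NTM (0.71).

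Transcription factors tied to transmitter choice moved both ways, with 4 rises and 4 falls among 23 (median -0.14), where 3.94% of all genes rose and 3.29% fell. PAX2, known from inhibitory neurons of the hindbrain and spinal cord, stood at 600, 414, 632 and 310 CPM against 418, 168, 156 and 103 CPM (1.33 ± 0.16, edgeR adjusted p = 0.000132). LHX1, a LIM-homeodomain factor, rose by 0.56 and the zinc-finger factor CASZ1 fell by 0.81. None of 11 neuropeptide genes and none of 17 cytoskeletal genes passed. With the weighting to equal make-up, under which 1.70% of all genes rose and 0.914% fell, 2 neuronal markers, 8 receptors, 6 channels, 6 genes of vesicle release, 7 adhesion genes and 1 neuropeptide gene rose, with no falls in these lists. No progenitor marker rose and 3 fell, 1 transmitter factor rose and 1 fell, and 1 cell cycle gene fell.

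Neurons of a given identity were next compared according to whether they held another one, which keeps that first identity the same. Cholinergic neurons and serotonergic neurons were too rarely alone to be fitted, with 20 or more such nuclei in 1 and 2 samples. With edgeR blocked by sample, 103 of 12259 genes (0.84%) differed for nitrergic neurons (3 samples), 437 of 13696 (3.19%) for catecholaminergic, 1363 of 15086 (9.03%) for glutamatergic (4 samples each) and 317 of 14103 (2.25%) for GABAergic neurons (3 samples). Of these 79, 255, 720 and 269 were higher with another identity. Without control replicate 1 the GABAergic count was 103, the catecholaminergic 262 and the glutamatergic 834, and the nitrergic count rose to 166. The number was also over 1.5 times away without control replicate 2 (265 catecholaminergic, 725 glutamatergic) and without PP121 replicate 1 (194 nitrergic, 206 catecholaminergic, 736 glutamatergic).

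The 10 named rises were chosen on the same nuclei, so their direction here is not independent. As a description, 8 passed in the same direction in all 4 identities tested, AL589693.1 in 3 of 4 and SPHKAP in 1 of 3. The log2 difference of PLD5 was 1.48 in nitrergic, 2.09 in catecholaminergic, 2.49 in glutamatergic and 2.45 in GABAergic neurons. That of GABRG3 was 2.08, 1.69, 1.65 and 1.42. Several named falls could be tested in only 1 identity (RIC3-DT, PDPN) or 2 (LINC01515, THRB, PAUPAR). Each named fall passed in the same direction in 1 identity, which was GABAergic for LINC01515 and glutamatergic for the others. AC068308.1 and AC125613.1, tested in 4, kept their direction in 2. Their log2 differences were 0.01 and 0.86 in nitrergic and 0.46 and 0.37 in catecholaminergic neurons. PAX3 fell in glutamatergic neurons with another identity (-1.52 ± 0.13) but rose in nitrergic ones (1.03 ± 0.23), and LMO3 passed in 1 of 3 identities tested (glutamatergic, -1.29). SLC6A5, the neuronal glycine transporter, was picked after its values were seen. It stood at 548, 481, 741 and 380 CPM in neurons with 2 or more identities and at 253, 94.0, 145 and 59.0 CPM in those with 1. Its log2 difference between neurons with and without another identity was 3.33 ± 0.30 in nitrergic, 2.60 ± 0.18 in catecholaminergic, 1.97 ± 0.12 in glutamatergic and 0.95 ± 0.14 in GABAergic neurons. Glycine was not among the 6 identities.

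Neurons of the most frequent exact combination, catecholaminergic with glutamatergic, were compared with neurons of either identity alone, a comparison and genes picked after seeing the counts. Against catecholaminergic neurons 222 of 11096 genes (2%) differed, 135 of them higher, and against glutamatergic neurons 988 of 12728 (7.76%), 476 of them higher. Both single identities differed from each other in 1944 of 11944 genes (16.3%). ST18, a zinc-finger transcription factor, was higher in the pair than in catecholaminergic neurons (2.06 ± 0.21) and lower than in glutamatergic neurons (-1.21 ± 0.16). The long non-coding RNA CASC15 was placed likewise (0.95 ± 0.13 and -0.9999 ± 0.12). The neurofilament gene NEFM was higher in the pair than in either (1.46 ± 0.17 and 1.02 ± 0.14), as was TAC1, the precursor of substance P (1.00 ± 0.21 and 2.44 ± 0.21). PAX3 (-2.09 ± 0.14) and HES6 (-2.005 ± 0.16), a factor of the HES family, were lower in the pair than in glutamatergic neurons, and GAP43, a growth cone protein, was higher (1.39 ± 0.12).

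PP121 and control neurons with 2 or more identities gave different counts of genes with and without the replicate number in the model. Without it, 0 of 19523 genes rose (0%) and 0 fell (0%) at an adjusted p under 0.05 by edgeR, 1665 had an unadjusted p under 0.05, and DESeq2 called 31. With the replicate number as a block, 434 rose (2.22%) and 201 fell (1.03%), on 1 residual degree of freedom a gene before information was shared across genes. The replicates carried different dates, so the block takes up the dates. Without PP121 replicate 1 the unblocked model called 296 genes, and without PP121 replicate 2 it called 57.

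The smallest unblocked p-values belonged to MT-ATP6, PRKCQ and AC139720.1. MT-ATP6, a mitochondrially encoded subunit of ATP synthase, stood at 42.5 and 36.9 CPM in control and at 11.01 and 13.7 CPM with PP121. Its log2 difference was -1.71 ± 0.18 with an edgeR adjusted p of 0.556, and 0.00281 with the block. The mitochondrial transcripts MT-ND3, MT-CYB and MT-CO3 fell with the block too, by 1.85, 1.58 and 1.36 on the log2 scale. Mitochondrial RNA in nuclei is a remnant of the cytoplasm, and its part in these values was not tested. PRKCQ, a protein kinase C, stood at 74.4 and 74.4 CPM in control and 147 and 159 CPM with PP121 (1.04 ± 0.12, edgeR adjusted p = 0.556, and 0.0026 with the block).

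Among the rises with the block, GRIK1, a kainate receptor subunit, stood at 35.9 and 42.6 CPM in control and 91.3 and 245 CPM with PP121 (1.92 ± 0.23, edgeR adjusted p = 0.00597). The homeobox gene SHOX2 stood at 1.39 and 12.4 CPM in control and 14.97 and 28.5 CPM with PP121 (2.02 ± 0.39), and its relative SHOX at 1.13, 8.09, 18.3 and 33.7 CPM in the same order (2.77 ± 0.35). AL008633.1 rose by 2.54 and STXBP5-AS1 fell by 1.53 on the log2 scale. Over all genes 2.22% rose with the block and 1.03% fell. Of 25 factors tied to transmitter choice 9 rose with the block and none fell (median log2 difference 0.45), as did 6 of 17 cytoskeletal genes (0.24) and 6 of 28 adhesion genes (0.26). LMX1B, a factor of serotonergic neurons, stood at 7.05 and 30.0 CPM in control and at 30.8 and 79.6 CPM with PP121. NEFM stood at 27.2, 61.2, 59.0 and 137 CPM in the same order. In both genes control 2 and PP121 1 were at about the same level, and the gap lay within each date. Of 25 genes of vesicle release 3 rose and 2 fell, the latter VAMP2 and PCLO. In neurons with 1 identity, edgeR called 0 genes unblocked (2006 at an unadjusted p under 0.05) and 1416 blocked. Unblocked log2 differences there were 1.75 for GRIK1, 2.04 for SHOX, 0.99 for SHOX2, 2.73 for AL008633.1 and -1.48 for STXBP5-AS1. Each of these passed there with the block, so they were not particular to neurons with 2 or more identities. MT-ATP6 (-0.97) and MT-CYB (-0.82) also passed there with the block. PRKCQ (0.43), MT-ND3 (-0.81) and MT-CO3 (-0.40) went the same way there but did not pass (edgeR adjusted p = 0.0885, 0.113 and 0.0702 with the block). Passing in 1 class only is no test of a difference between the classes.

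The difference between neurons with 2 or more and 1 identity itself changed with PP121 in 31 of 17674 genes (0.175%), 9 upwards and 22 downwards, by edgeR's interaction term. Within the joint neuron cluster 8 passed, and without a sample in turn the count ran from 13 (without control replicate 1) to 160 (without PP121 replicate 1), with 58 without control replicate 2 and 68 without PP121 replicate 2. EPHA6, an ephrin receptor, stood at 336 and 264 CPM in neurons with 2 or more identities of the controls and 127 and 141 CPM in those with 1. With PP121 the classes overlapped, at 359 and 252 CPM against 348 and 345 CPM. The difference of the log2 differences was -1.36 ± 0.17 (edgeR adjusted p = 0.002).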

How the data were processed

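Single-nucleus RNA-seq counts and per-nucleus annotation tables deposited by the authors were used for 4 samples. The counts are UMIs per gene and nucleus, not normalized, and the annotation also holds the authors' percent of mitochondrial and ribosomal UMIs. The submitters' processing notes name Cell Ranger, Seurat 4.0.4 and GRCh38, whereas the study's methods name kallisto and bustools. The strand setting of the counting is not given in the sources used here. Identities, cell types and subtypes were taken as annotated. The authors filtered nuclei by genes, UMIs and mitochondrial share before annotation, and only annotated nuclei were used.

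Members and gene lists were chosen with earlier results of these data known. UMIs were summed per sample and class and tested with edgeR 4.0.16 (TMM, filterByExpr with a count minimum of 10, quasi-likelihood F-test, Benjamini-Hochberg adjustment at 0.05, sample as a block for comparisons within samples) in R 4.3.3, with DESeq2 1.42.0 as an alternative. The SE of a log2 difference was taken from its F statistic. The edgeR steps were tested on simulated data. PP121 was tested without a block, as planned. The replicate number marks a shared day, since replicate 1 is dated day 42 and replicate 2 day 38 in both groups, and same-numbered samples deviated together (r = 0.378 across 19546 genes), so the blocked values are given beside it. Sums needed at least 20 nuclei.

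Named genes were the 10 largest rises and 10 largest falls that passed, averaged 10 CPM or more and kept their direction in 4 of 4 samples, without the 27 identity-list genes. For PP121 they were the 5 largest each way whose PP121 values did not overlap those of control, or the 3 smallest p where none passed, and for lists up to 4 members with the smallest p. Some genes that met these rules are not reported here. The comparison of exact combinations, the comparison of 3 or more with 2 identities, thinning to 4000 UMIs, and the leave-one-out and joint-cluster fits of the interaction were added after seeing the data.

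Nuclei were thinned to 2000 UMIs with a fixed seed, shallower ones left out. Scanpy 1.11.5 was used for scrublet and Leiden clustering (resolution 0.2). The doublet caller marked at most 1 nucleus a sample and had therefore not worked, so candidates were nuclei at or above the score that bounds the top 5% in each sample. The 95% intervals of shares rest on numbers of nuclei and take no account of depth. Gene positions came from GENCODE v29 (GRCh38), where AL589693.1, RIC3-DT, AC068308.1 and AL008633.1 had no match and SHOX had 2.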

Additional observations from a re-analysis of the deposited data

Results flagged for a closer look

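The difference between neurons with 2 or more and with 1 identity was itself different with PP121 and in control, by edgeR's interaction term (adjusted p under 0.05), for 10 genes named by the rule. The values are the PP121 log2 difference minus the control log2 difference. It was 2.40 for AL591686.2, 1.91 for PAX8, 1.72 for PAX8-AS1, 1.81 for CACNA2D3-AS1 and 1.57 for LINC01117. For PAX8 the class with 1 identity held 206 and 35.4 CPM in control and 36.2 and 3.25 CPM with PP121, so control 1 stood far above the others. The value was -1.58 for LINC01982, -1.51 for FLRT2, a membrane protein of axon guidance, -1.49 for CNTN5, a contactin, -1.36 for EPHA6 and -1.29 for LTBP1, which binds latent TGF-beta. LINC01982 stood at 38.4 and 68.0 CPM against 25.0 and 31.9 CPM in control, and at 54.3 and 47.9 CPM against 96.6 and 74.0 CPM with PP121.

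Of these 10, only LINC01982 and EPHA6 also passed in neurons of the joint cluster (edgeR adjusted p = 0.00577 and 0.011) and with DESeq2, which gave no adjusted p for CACNA2D3-AS1, LINC01117, FLRT2 and LTBP1.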

How the results depend on the processing

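The difference in the share of neurons with 2 or more identities between PP121 and control turned to -2.33 points within joint neuron clusters and -5.37 points for exactly 2 identities. It was 2.56 points without doublet candidates, 2.77 over neurons with 1 or more identities, 4.64 over assessed neurons and 6.48 for 3 or more identities, and ran from -3.54 to 5.77 points when 1 sample was left out. The genes differing between neurons with 2 or more and 1 identity numbered 1277, and 665 in joint clusters, 460 for exactly 2 against 1, 461 with weighting, 1922 with no filter on low counts, 646 with DESeq2 and 476 to 1350 with 1 sample left out. The weighting in PP121 2 rests on 1 cholinergic nucleus. Without the sample as a block only 9 passed. In the pairing of replicates by day, PP121 gave 635 genes with the replicate block against 0 without it. Without the block it gave 565 with no filter, 31 with DESeq2 and 0 to 296 with 1 sample left out. The interaction gave 147 genes with no filter, 20 with at least 10 counts in every sum, 12 with DESeq2, 8 in joint clusters and 13 to 160 with 1 sample left out. With 1 sample left out, neurons with another identity differed in 98 to 194 genes for nitrergic, 206 to 446 for catecholaminergic, 725 to 1300 for glutamatergic and 103 to 354 for GABAergic neurons. UMIs for 2 of its own identities were held by 2.59% of neurons as a mean over samples, 6.73% at 4000 UMIs, 15.7% without thinning and 8.23% with all genes of the lists. The median UMI difference ran from 1374 to 1604 with 1 sample left out. Of 140 values of the 20 named genes under 7 other settings, 4 lost significance and none changed sign. The 4 were LINC01515 at 5000 or more UMIs and with thinning, PAUPAR with weighting and PDPN for exactly 2 identities. Fits without the sample block or with a sample left out are not among the 140. Since 9 genes passed without the sample block, at least 11 of the 20 lost their call there. The cause of these shifts was not tested. Where a lone sample was left in a group, it was assumed to vary like the others. Depth limits the check of identities by transcripts, since most defining genes are seen in few nuclei.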
